A study of Mus musculus with 24 samples.

Results

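The cadherins and protocadherins are the calcium-dependent adhesion proteins of vertebrate cells, and the genes described here are every row of the deposited table named Cdh followed by a number, or starting with Pcdh. Cdh5, the endothelial cadherin, was left out and used as an endothelial marker instead. The rule gave 73 of the 13803 genes listed, namely 17 Cdh genes, 12 protocadherins outside the gene clusters, 1 gene of the alpha cluster (Pcdhac2), 21 of the beta cluster and 22 of the gamma cluster. Of the 90 protein-coding genes of GENCODE release M21 that fit the same names, 72 were in the table, and the other member, Pcdhgb8, is annotated as a polymorphic pseudogene.

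Messenger RNA was sequenced from stromal cells of embryonic mouse kidneys, sorted by flow cytometry with the FoxD1Cre-eGFP marker, whose Cre and green fluorescent protein follow the Foxd1 gene of the renal stroma. The labels give 24 libraries in 8 groups of 3. At E12.5 and E13.5 (embryonic days) there were β-catSD cells, in which β-catenin is deficient, with wild-type cells of the C57BL/6 strain as their controls, and β-catSO cells, in which β-catenin is stabilised, with wild-type cells of the CD1 strain as theirs. The series record speaks of FoxD1Cre-eGFP kidneys for wild-type and mutant cells alike and of 3 kidneys for each genotype. The β-catenin alleles themselves were not analysed here, since no label names them. Strain goes with the line, so a difference between the lines cannot be told apart from one between strains. Whether the libraries of a group came from separate animals is not stated, and a p-value here measures only how far these libraries spread.

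Classical cadherins bind the same cadherin on a neighbouring cell and hold β-catenin, p120 catenin and, through these, alpha-catenin and actin at the junction, so that β-catenin serves both at the membrane and as the nuclear partner of TCF and LEF factors in Wnt signalling. Type I members (Cdh1, Cdh2, Cdh3, Cdh4, Cdh15) and type II members (such as Cdh6, Cdh8, Cdh11, Cdh22, Cdh24) differ in the residues that dock into the partner molecule, and cells sort from one another by which of them they carry. Protocadherins lack the catenin-binding tail. Those of the alpha and gamma clusters share constant exons behind many alternative first exons, which those of the beta cluster do not. The protocadherins outside the clusters are single genes that act in cell sorting, axon growth and cell movement. In the kidney, mesenchyme carries N-cadherin and cadherin-11, the early nephron K-cadherin, and the ureteric epithelium E-cadherin.

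RefSeq promoter windows (GRCm38.p6, 250 bases before a gene's start) were held for 19 of the 73 members, in 20 windows. What is printed of a window is its longest stretch free of GENCODE exons, which left out 116 exonic bases for Cdh22 (of Cdh22 itself) and 113 for Pcdh10 (of 2610316D01Rik). The windows of 4 members that carried large changes are printed here, 5′ to 3′ on the gene's own strand, so that their base composition can be seen. Capitals mark the CCAAT box in either orientation (CCAAT or ATTGG).
Cdh22, chr2:165234854-165234987, minus strand: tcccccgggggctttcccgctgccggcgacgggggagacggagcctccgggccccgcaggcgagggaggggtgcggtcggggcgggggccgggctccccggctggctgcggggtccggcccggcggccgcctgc
Pcdh10, chr3:45378261-45378397, plus strand: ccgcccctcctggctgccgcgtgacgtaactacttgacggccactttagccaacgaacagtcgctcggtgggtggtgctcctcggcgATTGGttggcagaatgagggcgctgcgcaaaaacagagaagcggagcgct
Pcdh9, chr14:93890680-93890929, minus strand: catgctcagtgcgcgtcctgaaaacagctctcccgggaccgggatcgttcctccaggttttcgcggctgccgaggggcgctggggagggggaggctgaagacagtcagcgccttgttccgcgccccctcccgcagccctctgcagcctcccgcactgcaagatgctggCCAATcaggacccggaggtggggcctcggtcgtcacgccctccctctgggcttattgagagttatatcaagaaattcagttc
Pcdh19, chrX:133688994-133689243, minus strand: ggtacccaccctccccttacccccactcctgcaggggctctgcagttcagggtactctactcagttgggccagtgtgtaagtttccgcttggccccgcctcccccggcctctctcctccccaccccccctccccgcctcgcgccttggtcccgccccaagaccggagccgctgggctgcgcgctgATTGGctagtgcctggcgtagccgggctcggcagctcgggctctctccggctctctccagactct
The printed Cdh22 stretch was 85.1% G and C over 134 bases with 19 CG pairs, and that of Pcdh10 62.0% over 137 bases with 14. Pcdh9 had 63.6% and 18 CG pairs over 250 bases, and Pcdh19 had 69.2% and 16. The median of all 32851 whole windows of the table was 52.4% G and C with 6 CG pairs. The TCF/LEF motif letters CTTTGAT or CTTTGAA, searched on both strands, were in 7.48% of all windows and in 1 of the 20 member windows, that of Pcdh7, and in none of those printed. CCAAT, chosen after the sequences had been read, was in 33.9% of all windows and in 14 of the 20 member windows. Those shares are over whole windows, and the printed stretch that lacks it is that of Cdh22. These matches are letters only, and windows of the other 54 members were not analysed here.

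Library depth ran from 6.18 to 21.2 M (mega) reads. Summed stroma markers were 7626 to 12230 CPM (counts per M reads) in every library, with none of the 10 at 0, while 10 of 15 epithelial markers were at 0 reads in at least 1 library. One library stands apart: wild-type CD1 E13.5 replicate 1 had the lowest stroma sum, an epithelial sum of 410 CPM (53.5 to 154 in the others) and an endothelial sum of 850 CPM (36.1 to 394 in the others). Of the epithelial markers Wnt11 read 4.64 to 6.06 log2 CPM over all libraries, also where others were at 0. The low epithelial sums therefore rest in good part on Wnt11. Wild-type C57BL/6 E12.5 replicate 3 had 3728 CPM of liver markers. Endothelial markers fell in 8 of 10 and macrophage markers in 8 of 8 in the β-catSD mean of stages, and in the β-catSO mean 0 of 10 and 0 of 8 passed. In that mean 3 of 5 cartilage markers rose (summed 217 to 302 CPM against 68.2 to 80.8 in wild-type CD1 at E12.5, and 90.02 to 101 against 36.2 to 117 at E13.5). Of the stroma markers 4 of 10 rose and 5 fell, among them Foxd1 (-1.02 ± 0.11), and 3 of 3 liver and 3 of 6 erythroid markers fell. The part of these markers in the β-catSO changes of members was not tested. Ctnnb1, the β-catenin gene, changed by -0.24 ± 0.05 on the log2 scale (± SE) in the β-catSD mean of stages (adjusted p = 0.00193) and did not pass in β-catSO (-0.10 ± 0.05, adjusted p = 0.143). These are bulk samples, in which fewer cells of a type and less RNA per cell cannot be told apart.

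Levels between genes were compared as CPM per kilobase of exon, averaged over the 12 wild-type libraries. Cdh11, the mesenchymal OB-cadherin, was the most abundant at 100.3 ± 9.75 (SD, n = 12). Pcdh18, a non-clustered protocadherin, followed at 44.9 ± 5.11 and Pcdhgc3, the C-type gamma protocadherin, at 29.8 ± 2.15, while Cdh2, N-cadherin, stood at 25.7 ± 3.33. The spreads of Pcdhgc3 and Cdh2 overlapped, but both were measured in the same libraries, and Pcdhgc3 had the higher mean in each wild-type group. Cdh24 came next at 16.3 ± 3.34. Cdh6 (9.05), Cdh3 (8.998) and Pcdh19 (6.49) lay within or near each other's spread. The remaining 65 members averaged under 4 CPM per kilobase. E-cadherin, Cdh1, the epithelial type I cadherin, ran from 0 to 568 reads in single libraries.

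**Figure D1:**
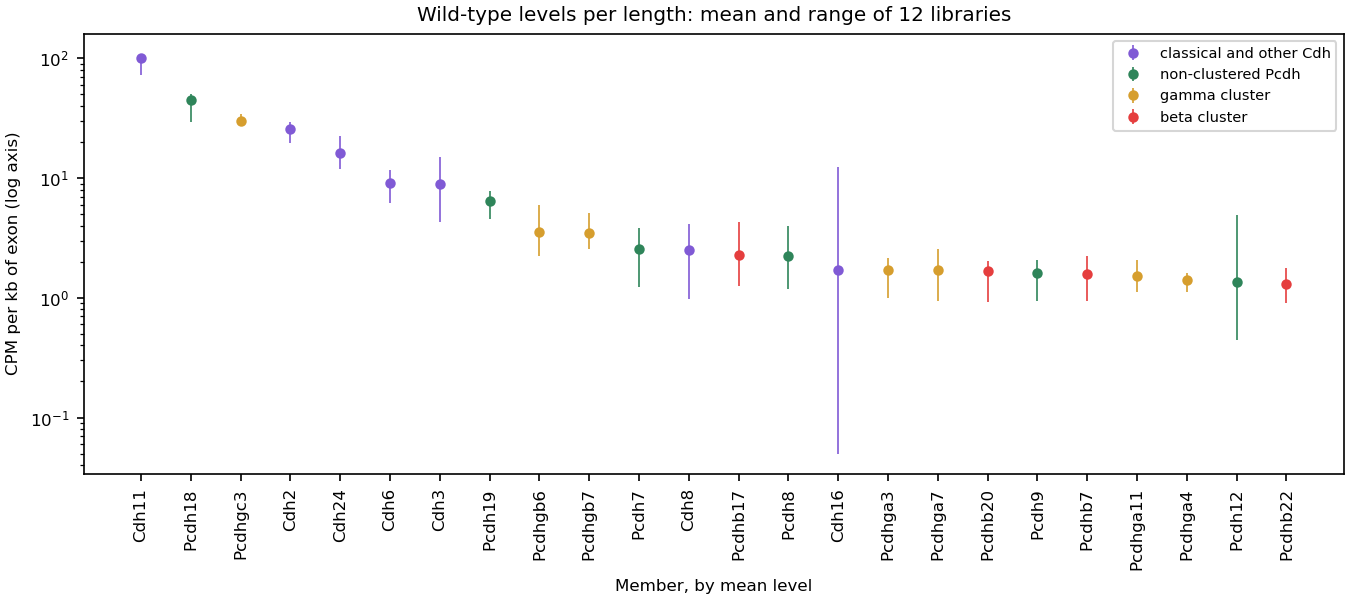
Wild-type level of the 24 most abundant members in CPM per kilobase of exon (log axis), as the mean (point) and the range (bar) of 12 libraries, coloured by family. Cdh11 lies highest at 100.3, and the bar of Cdh16, whose lowest library has 0 reads, is drawn down to 0.05 only.

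In β-catSO cells 19 members were called in the mean of the stages, and in β-catSD cells 4. A call here means an adjusted p under 0.05 (limma, Benjamini-Hochberg over all 13803 genes). In the β-catSO mean of the stages 15 of 73 members rose and 4 fell, while 10.2% of all genes were called higher and 8.32% lower. In the β-catSD mean 3 rose and 1 fell, where 3.46% of all genes were called higher and 3.71% lower. The median change of the members was 0.25 on the log2 scale in β-catSO and 0.16 in β-catSD, against 0.00 for all genes in both.

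By stage, 1 member (Pcdh9) rose and 0 fell in β-catSD at E12.5, with 0.985% of all genes called higher and 0.732% lower. An unadjusted p under 0.05 was held by 10 members, and the share of all genes at that threshold was not counted. At E13.5 Pcdh9 rose and Pcdh19 fell, where 1.33% and 2.07% of all genes were called. In β-catSO 6 rose and 1 fell at E12.5 (5.17% and 3.00% of all genes), and 15 rose and 3 fell at E13.5 (8.53% and 6.83%). Of the 73 members 22 were called in at least 1 of these 6 comparisons and 51 in none. Called in the mean of both lines were 3 members, Cdh2, Pcdh9 and Pcdh19. The shares of all genes called in at least 1 of the 6, or in both means, were not counted, so these counts show no excess.

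**Figure D2:**
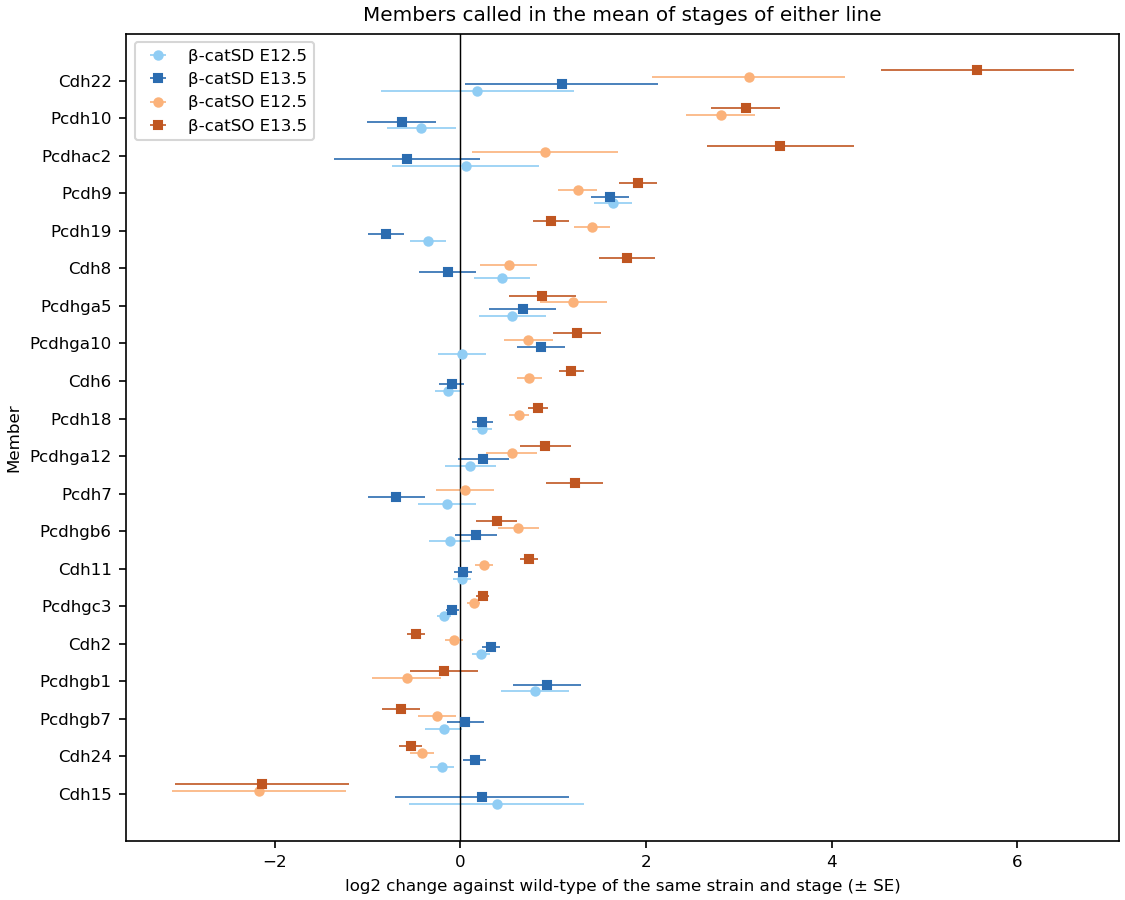
Log2 change (± SE) of the 20 members called in the mean of stages of either line, at each stage, against wild-type cells of the same strain and stage. Cdh22, Pcdh10 and Pcdhac2 have the largest rises in β-catSO, Cdh15 the largest fall, and Pcdh9 is the member whose 4 points all lie above 1.

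The summed level of all 73 members was 2814 ± 114 CPM (SD, n = 3) in β-catSO E12.5 cells and 2215 ± 54.2 in their controls. At E13.5 it was 2896 ± 151 against 1967 ± 192. The ranges of the libraries did not overlap at either stage. In β-catSD it was 2291 ± 154 against 2176 ± 43.7 at E12.5 and 2178 ± 95.2 against 2044 ± 77.9 at E13.5, with overlapping libraries at both. The non-clustered protocadherins summed to 734 ± 24.1 CPM in β-catSO against 425 ± 30.4 at E12.5 and to 682 ± 26.1 against 375 ± 29.4 at E13.5. All these sums follow the most abundant members and do not tell how many members rose. Cdh11 alone stood at 119 CPM per kilobase in β-catSO against 99.8 in controls at E12.5, and at 149 against 90.3 at E13.5.

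Among type I cadherins, N-cadherin moved in opposite directions in the mutant lines. In log2 CPM, the scale of the single-library values given from here on, Cdh2 read 7.89, 8.16 and 8.0 in β-catSD against 7.75, 7.79 and 7.86 in wild-type C57BL/6 at E12.5. At E13.5 it read 7.80, 7.87 and 7.79 against 7.47, 7.53 and 7.47. Every β-catSD library lay above every control of its stage. The rise was 0.27 ± 0.07 in the mean of stages (SE, adjusted p = 0.0164). With marker means as covariates it was 0.14 and no longer passed (adjusted p = 0.545), and without β-catSD E12.5 replicate 2 the adjusted p was 0.0528.

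In β-catSO, Cdh2 read 7.71, 7.84 and 7.81 against 7.90, 7.88 and 7.79 in wild-type CD1 at E12.5 and 7.31, 6.98 and 7.07 against 7.29, 7.77 and 7.73 at E13.5. The groups overlapped at both stages, at E13.5 through 1 control, replicate 1, the library high in epithelial and endothelial markers. The fall was -0.48 ± 0.10 at E13.5 (adjusted p = 0.00142) and -0.27 ± 0.07 in the mean (adjusted p = 0.00672). The β-catSO and β-catSD effects differed by -0.55 ± 0.10 (adjusted p = 0.000315), a difference whose adjusted p was 0.06 with the marker covariates.

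E-cadherin (Cdh1) had few reads and wide spread. It read -3.38, -1.72 and -1.45 in β-catSD and -2.76, 2.12 and 3.43 in wild-type C57BL/6 at E12.5, and -2.32, -0.34 and -2.28 and -0.10, -1.02 and -4.10 at E13.5. In β-catSO it read 0.62, 0.23 and 0.52 against -1.94, 2.13 and 1.65 in wild-type CD1 at E12.5, and 0.81, 2.43 and 2.83 against 5.09, 1.74 and 1.84 at E13.5. Mutant and control libraries overlapped in all 4 comparisons and none was called (adjusted p = 0.405 and 0.773 in the means).

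P-cadherin (Cdh3), also found in epithelial and basal cells, was well covered. At E12.5 it read 5.22, 5.51 and 5.72 in β-catSD against 4.25, 5.02 and 5.03, and 5.16, 5.05 and 5.65 in β-catSO against 4.84, 5.16 and 5.01. E13.5 libraries read 5.08, 5.05 and 5.76 against 5.36, 4.96 and 5.57, and 5.36, 5.84 and 5.80 against 6.03, 5.67 and 5.85. The β-catSD libraries lay above their controls at E12.5 only, with a change of 0.71 ± 0.22 that did not pass (adjusted p = 0.104). It passed with the replicate block (0.71, adjusted p = 0.031) and with the marker covariates (0.87, adjusted p = 0.0495).

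R-cadherin (Cdh4), known from retina and from developing kidney, read 3.43, 4.58 and 3.93 in β-catSD against 3.04, 3.56 and 2.66 at E12.5 and 3.35, 4.24 and 3.57 against 3.02, 2.97 and 2.53 at E13.5. In β-catSO it read 3.53, 3.64 and 4.14 against 1.67, 2.86 and 2.54 at E12.5 and 2.13, 2.53 and 3.50 against 5.08, 2.84 and 2.98 at E13.5. The β-catSO libraries all lay above their controls at E12.5 and overlapped with them at E13.5, where control replicate 1 was the highest of the 24 libraries. Neither the E12.5 change of 1.42 ± 0.47 (adjusted p = 0.0649) nor that at E13.5 (-0.91 ± 0.47, adjusted p = 0.207) was called. Without the 2 libraries highest in markers of other cells, the E12.5 change was 1.42 and passed (adjusted p = 0.0114). It also passed with marker covariates (1.70, adjusted p = 0.001) and array weights (1.365, adjusted p = 0.0139). At E13.5 voom weights gave a call (-1.37, adjusted p = 0.0465). In β-catSD no call was made in the main fit, though the E13.5 libraries all lay above their controls. Its mean passed with the 12 libraries of the line alone (0.89, adjusted p = 0.0283), and E12.5 with marker covariates (1.43, adjusted p = 0.034).

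M-cadherin (Cdh15), the type I cadherin of the muscle lineage, had the largest fall of any called member. It read -3.63, 0.23 and -2.15 in β-catSO against 0.38, -0.26 and 0.85 at E12.5, from 0, 7 and 1 and 12, 8 and 17 reads. At the later stage it read 0.88, -1.32 and -4.65 against 0.72, 0.64 and -0.04, from 22, 8 and 0 and 27, 10 and 7 reads. The libraries overlapped at both stages. The fall was -2.16 ± 0.67 in the mean (adjusted p = 0.0247), a size that depends on the 0.5 added to each count: with log2(CPM + 1) it was -0.65 and did not pass (adjusted p = 0.0767). Leaving out any of 4 libraries also ended the call (β-catSO E12.5 replicates 1 and 3, β-catSO E13.5 replicate 3 and wild-type CD1 E12.5 replicate 3). Of the 6 skeletal muscle markers only Actc1 was in the table, and it was higher in β-catSO at E13.5 (2.46 ± 0.81, adjusted p = 0.0416) and did not pass in the mean (1.44 ± 0.57, adjusted p = 0.0855).

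Of the type II cadherins, Cdh6, Cdh8, Cdh11 and Cdh22 rose in the β-catSO mean and Cdh24 fell. Cdh11, the OB-cadherin of mesenchyme, was called at E13.5 and not at E12.5. It read 9.98, 10.00 and 10.17 in β-catSO against 9.76, 9.78 and 9.85 at E12.5 and 10.26, 10.37 and 10.49 against 9.34, 9.85 and 9.72 at E13.5. Every β-catSO library lay above its controls. The rise was 0.74 ± 0.09 at E13.5 (adjusted p = 4.25e-06) and 0.50 ± 0.07 in the mean (adjusted p = 5.76e-06). In β-catSD it read 9.88, 9.84 and 9.99 against 9.92, 9.90 and 9.83 at E12.5 and 9.80, 9.89 and 10.00 against 9.89, 9.80 and 9.91 at E13.5. These groups overlapped, and the mean change was 0.02 ± 0.07 (adjusted p = 0.888). Stretches of Cdh11 transcripts are at least 95% identical to stretches of 7 other genes, so part of its counts may be shared.

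K-cadherin (Cdh6), a marker of early nephron structures that was also abundant in these stromal cells, read 7.44, 7.40 and 7.33 in β-catSO against 6.58, 6.72 and 6.65 at E12.5. The E13.5 values were 7.49, 7.34 and 7.44 against 5.84, 6.54 and 6.29. All 6 β-catSO libraries lay above all 6 controls. The rises were 0.74 ± 0.13 (adjusted p = 0.000773) and 1.20 ± 0.13 (adjusted p = 7.82e-07). In β-catSD it read 6.22, 6.17 and 6.43 against 6.28, 6.52 and 6.44 at E12.5 and 5.76, 6.10 and 5.89 against 6.26, 5.98 and 5.79 at E13.5. There the libraries overlapped and no call was made (mean -0.11 ± 0.09, adjusted p = 0.563). Beside this rise, nephron progenitor and early nephron markers summed to 321 to 384 CPM in β-catSO against 315 to 338 in wild-type CD1 at E12.5, and 243 to 310 against 280 to 652 at E13.5. In the mean 3 of these 10 markers fell, Meox1, Pax2 and Pax8, and Jag1, a Notch ligand of early nephrons, rose (0.85 ± 0.17, adjusted p = 0.000872). Their part in the rise of Cdh6 was not tested.

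PB-cadherin (Cdh22), a type II cadherin of pituitary and brain, had the largest rise. It read 2.15, 2.73 and 2.64 in β-catSO against 0.49, 0.41 and -2.70 at E12.5, from 27, 42 and 41 and 13, 13 and 1 reads. At E13.5 the values were 3.91, 3.85 and 4.95 against 0.23, -3.76 and -0.48, from 183, 304 and 389 and 19, 0 and 5 reads. The β-catSO libraries were above every wild-type and β-catSD library of the series. The rise was 5.57 ± 1.04 at E13.5 (adjusted p = 0.000481) and 4.34 ± 0.73 in the mean (adjusted p = 0.000124). On the log2(CPM + 1) scale the mean rise was 2.79, with the call kept, and the E12.5 rise of 3.11 ± 1.04 (adjusted p = 0.0685) passed there too (1.87, adjusted p = 0.00223). In β-catSD Cdh22 stayed between -1.55 and 0.92 log2 CPM and was not called.

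Cdh8, a type II cadherin best known from neurons, read 5.21, 5.45 and 5.54 in β-catSO against 4.90, 4.74 and 5.00 at E12.5 and 5.37, 4.74 and 5.01 against 3.16, 3.64 and 2.93 at E13.5. The β-catSO libraries were above their controls at both stages. The rise was 1.80 ± 0.30 at E13.5 (adjusted p = 0.000167), beside 0.52 ± 0.30 at E12.5 (adjusted p = 0.351). Cdh24, a widely expressed type II cadherin, went the other way: 5.67, 5.82 and 5.48 against 6.28, 6.00 and 5.92 at E12.5 and 5.28, 5.25 and 5.29 against 5.64, 6.12 and 5.67 at E13.5. Each β-catSO library lay below its controls. It fell by 0.41 ± 0.13 (adjusted p = 0.0446) and by 0.54 ± 0.13 (adjusted p = 0.00462), the E12.5 call being lost under 4 alternative fits (adjusted p up to 0.0857) and without any 1 of 4 libraries (β-catSO replicates 1 and 3, wild-type CD1 replicates 1 and 2).

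Cdh13, the T-cadherin that is anchored by a lipid and has no cytoplasmic tail, rose by 1.26 ± 0.39 in β-catSO at E13.5 (adjusted p = 0.0318), with no overlap. The call was lost without any 1 of 4 libraries (β-catSO E13.5 replicates 1, 2 and 3, wild-type CD1 E13.5 replicate 3) and with the marker covariates (adjusted p = 0.0884). It was not called at E12.5 (-0.26 ± 0.39, adjusted p = 0.779). Neural crest, glia and neuron markers, given because several of these cadherins are neural, summed to 20.5 to 38.3 CPM in β-catSO and 11.8 to 36.0 in wild-type CD1. Tubb3 was the 1 of 8 that passed (higher by 3.61 ± 0.61), and their part in these results was not tested.

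**Figure D3:**
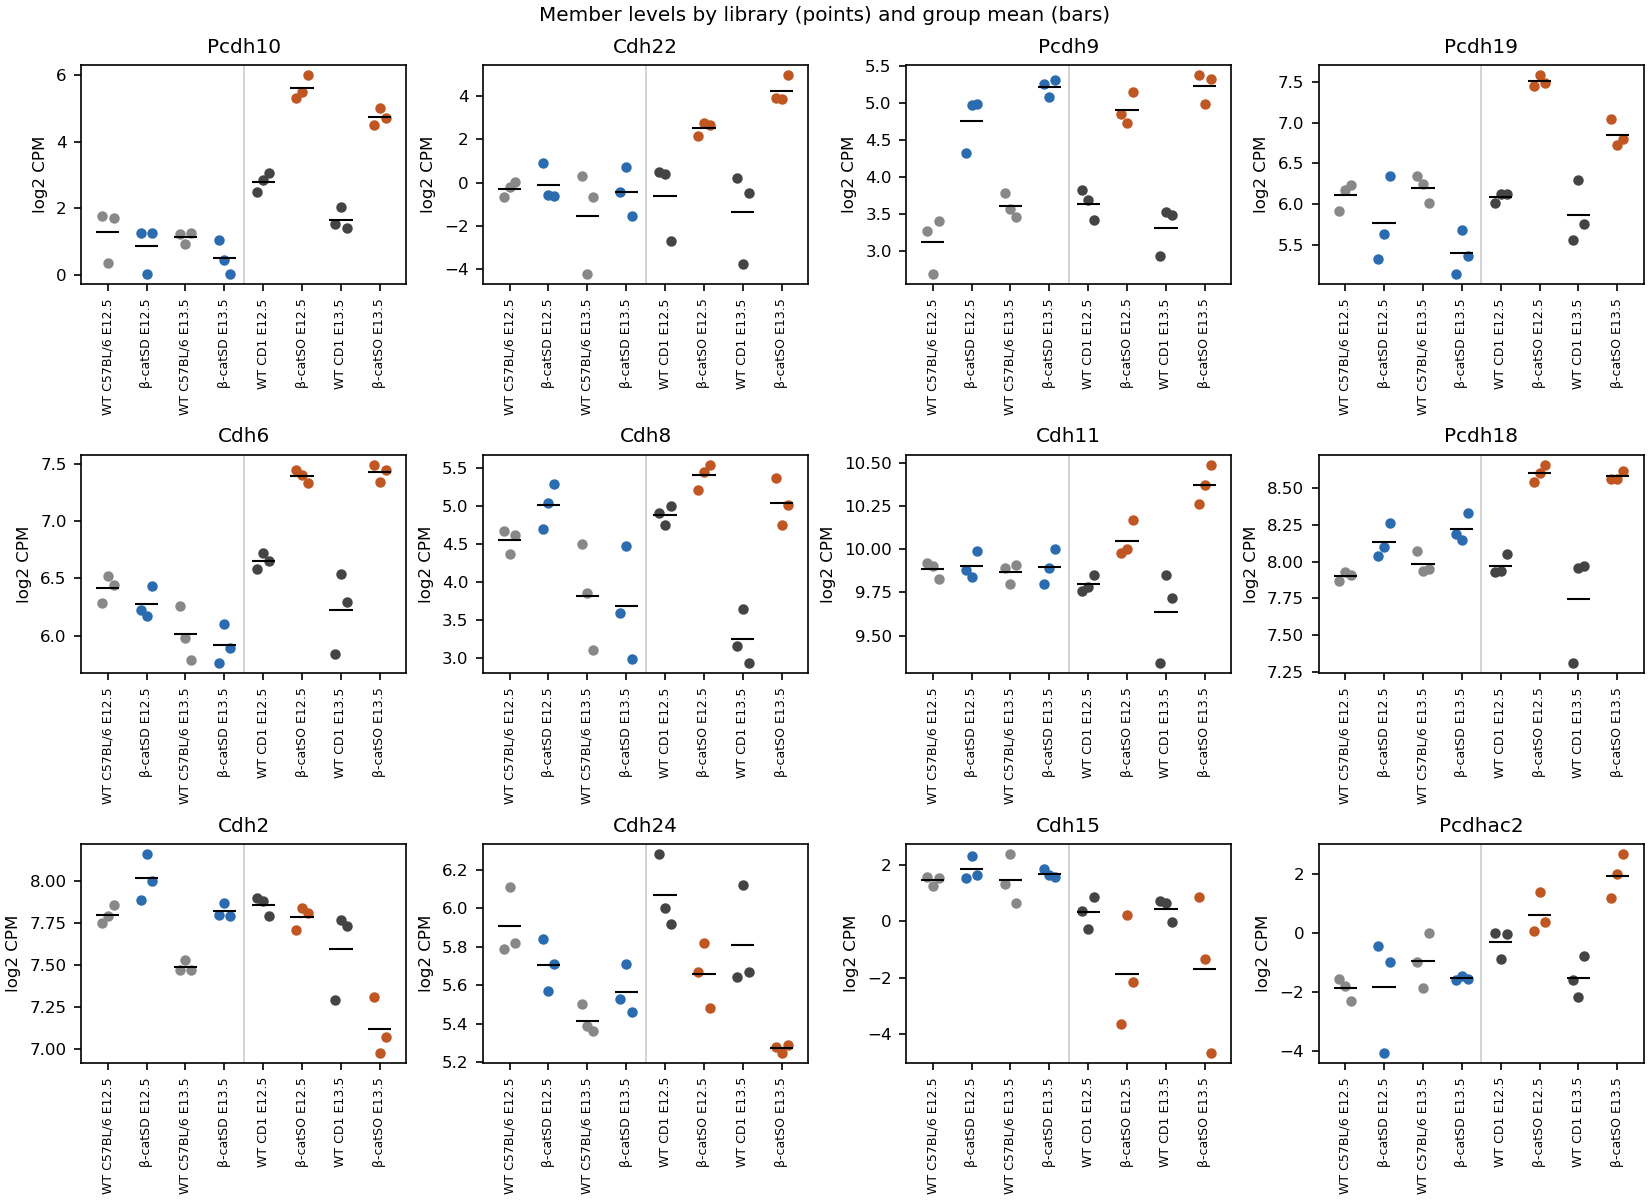
Log2 CPM of 12 called members in each of the 24 libraries (points) with the group mean (bar), the C57BL/6 line to the left of the grey line and the CD1 line to the right. Cdh22, Pcdh10, Cdh6 and Cdh8 separate the β-catSO libraries from their controls, Pcdh9 separates both mutants from theirs, and Cdh2 shows opposite shifts.

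Of the non-clustered protocadherins 5 of 12 rose and 0 fell in the β-catSO mean (Pcdh7, Pcdh9, Pcdh10, Pcdh18, Pcdh19), where 10.2% of all genes were called higher and 8.32% lower, with a median of 0.63 over the 12. In β-catSD 1 rose and 1 fell, and the median was 0.20. Pcdh10, OL-protocadherin, which recruits the WAVE actin regulators and acts in axon growth, was lower in every wild-type and β-catSD library than in any β-catSO library. It read 5.32, 5.48 and 6.00 in β-catSO against 2.48, 2.84 and 3.07 at E12.5. At E13.5 it read 4.50, 5.00 and 4.71 against 1.54, 2.03 and 1.41. Control libraries were lower at E13.5 than at E12.5, and the β-catSO libraries stood well above both. The rises were 2.81 ± 0.37 (adjusted p = 2.33e-05) and 3.07 ± 0.37 (adjusted p = 2.4e-06).
In β-catSD Pcdh10 read 1.27, 0.04 and 1.27 against 1.76, 0.36 and 1.72 at E12.5 and 1.05, 0.45 and 0.04 against 1.24, 0.94 and 1.26 at E13.5. These groups overlapped at both stages and no change was called (mean -0.53 ± 0.26, adjusted p = 0.272). The β-catSO effect exceeded the β-catSD effect by 3.47 ± 0.37 (adjusted p = 3.79e-07).

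Pcdh9, a protocadherin of neural and mesenchymal tissue, was the one member called higher in all 4 comparisons of mutant with control. In β-catSD it read 4.32, 4.97 and 4.98 against 3.26, 2.69 and 3.40 at E12.5 and 5.25, 5.08 and 5.30 against 3.78, 3.56 and 3.45 at E13.5. In β-catSO it read 4.84, 4.72 and 5.14 against 3.82, 3.68 and 3.41 at E12.5 and 5.37, 4.98 and 5.32 against 2.93, 3.52 and 3.48 at E13.5. No mutant library overlapped with its controls. The mean rise was 1.63 ± 0.15 in β-catSD (adjusted p = 2.07e-07) and 1.59 ± 0.15 in β-catSO (adjusted p = 2.68e-08). The effects differed by -0.04 ± 0.21 (95% interval -0.47 to 0.39, adjusted p = 0.927).

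Pcdh19, the X-linked protocadherin that pairs with N-cadherin and is mutated in a form of epilepsy, moved in opposite directions. It read 7.45, 7.58 and 7.48 in β-catSO against 6.01, 6.12 and 6.13 at E12.5 and 7.04, 6.72 and 6.80 against 5.56, 6.30 and 5.76 at E13.5. In β-catSD it read 5.33, 5.63 and 6.35 against 5.92, 6.18 and 6.24 at E12.5 and 5.15, 5.69 and 5.36 against 6.35, 6.25 and 6.01 at E13.5. The β-catSO libraries lay above their controls at both stages, and the β-catSD libraries lay below theirs at E13.5 but overlapped at E12.5, where replicate 3 was the highest. Pcdh19 rose by 1.20 ± 0.14 in the β-catSO mean (adjusted p = 7.01e-07) and fell by 0.57 ± 0.14 in the β-catSD mean (adjusted p = 0.0104). Its effects differed by 1.77 ± 0.19 (adjusted p = 5.18e-07). With the marker covariates the β-catSD mean no longer passed (adjusted p = 0.303), and the E13.5 fall of 0.80 ± 0.19 (adjusted p = 0.0208) was lost under 3 alternative fits (voom weights, the 12 libraries of the line and the marker covariates, adjusted p up to 0.447) and without β-catSD replicate 1 or 3 or wild-type replicate 1 or 2.

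Pcdh18, the most abundant protocadherin of these cells, rose in β-catSO by 0.63 ± 0.11 at E12.5 (adjusted p = 0.000619) and 0.84 ± 0.11 at E13.5 (adjusted p = 7.7e-06), with no overlap at either stage. In β-catSD its libraries also lay above their controls at both stages, and the mean change of 0.23 ± 0.08 did not pass (adjusted p = 0.0758). Without the 2 libraries highest in markers of other cells it did (0.24, adjusted p = 0.00304). Pcdh7, NF-protocadherin, rose in β-catSO at E13.5 by 1.23 ± 0.31 (adjusted p = 0.00745) and stood at 0.05 ± 0.31 at E12.5 (adjusted p = 0.956). Its rise in the mean (0.64 ± 0.22, adjusted p = 0.0432) was lost on leaving out any 1 of 9 libraries, and 21.1% of its exon bases lie opposite another gene. The other 7 non-clustered members (Pcdh1, Pcdh8, Pcdh11x, Pcdh12, Pcdh15, Pcdh17 and Pcdh20) were called in none of the 6 comparisons with controls in the main fit. With marker covariates Pcdh1 was called higher in β-catSD at E13.5 (2.95, adjusted p = 0.000423) and in its mean (2.00, adjusted p = 0.000335). Pcdh8 was called lower in β-catSO at E13.5 with voom weights (-0.95, adjusted p = 0.037) and marker covariates (-1.07, adjusted p = 0.0486).

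Clustered protocadherins give each cell its own set of surface isoforms in the nervous system, and which of them are used is set by promoter looping. In these stromal cells Pcdhgc3 made up 49.1% to 62.6% of the gamma reads in every library, against a share of 58.1% to 62.6% in wild-type CD1, 54.6% to 61.5% in β-catSO, 52.9% to 57.4% in wild-type C57BL/6 and 49.1% to 52.1% in β-catSD. The β-catSD range lay below that of its controls. Counts of single gamma genes are uncertain, since 31.5% to 66.8% of their exon bases lie in other genes of the same strand, as do 48.6% for Pcdhac2, and how the authors assigned such reads is not stated in the labels.

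Of the 21 beta cluster genes 0 were called in either mean by limma in the fit used throughout. With voom weights and on the log2(CPM + 1) scale Pcdhb5 was called higher in the β-catSD mean (0.96 and 0.68, adjusted p = 0.0415 and 0.0486). At an unadjusted p under 0.05 were 2 in β-catSD (Pcdhb5 and Pcdhb9) and 3 in β-catSO (the same pair and Pcdhb17), with the share of all genes not counted. Pcdhb17 was the one called within a stage, higher by 0.68 ± 0.22 in β-catSO at E13.5 (adjusted p = 0.0411), a call lost without any 1 of 5 libraries and without the 2 libraries highest in markers of other cells. The summed level of the cluster was 94.8 ± 6.04 CPM in β-catSO against 93.0 ± 2.60 at E12.5, and 83.1 ± 7.73 against 66.9 ± 10.3 at E13.5.

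In the gamma cluster 5 of 22 rose in the β-catSO mean and 1 fell (10.2% and 8.32% of all genes), and 1 rose in the β-catSD mean (3.46% of all genes). The single fall and the single β-catSD rise lie near those shares. The rises in β-catSO were Pcdhga5 (1.05 ± 0.26, adjusted p = 0.0049), Pcdhga10 (1.00 ± 0.18, adjusted p = 0.000343), Pcdhga12 (0.73 ± 0.19, adjusted p = 0.00872), Pcdhgb6 (0.51 ± 0.16, adjusted p = 0.0258) and Pcdhgc3 (0.19 ± 0.05, adjusted p = 0.00966). The smallest of them belonged to the most abundant gene. For Pcdhga10, 55.2% of exon bases lie opposite another gene, and the Pcdhgb6 call was lost without any 1 of 7 libraries. At single stages Pcdhga5 passed at E12.5 (1.22 ± 0.36, adjusted p = 0.0389) and Pcdhga10, Pcdhga12 and Pcdhgc3 at E13.5 (1.26 ± 0.26, 0.91 ± 0.27 and 0.24 ± 0.07, adjusted p = 0.00146, 0.0252 and 0.026). The Pcdhga5 call at E12.5 was lost without any 1 of 5 libraries, and those of Pcdhga12 and Pcdhgc3 at E13.5 without any 1 of 4. The Pcdhga5 call was also lost under 2 alternative fits (adjusted p up to 0.108). Those of Pcdhga12 and Pcdhgc3 were lost under 5 and 3 (adjusted p up to 0.122 and 0.0703).

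Pcdhgb7 was the gamma gene that fell. It read 3.77, 4.24 and 4.04 in β-catSO against 4.23, 3.99 and 4.59 at E12.5 and 3.21, 3.48 and 3.42 against 3.64, 3.97 and 4.42 at E13.5. The groups overlapped at E12.5 and not at E13.5. It fell by 0.64 ± 0.20 at E13.5 (adjusted p = 0.0333) and by 0.44 ± 0.14 in the mean (adjusted p = 0.0307), and both calls were lost under 3 alternative fits (adjusted p up to 0.28 and 0.108), as the mean was without any 1 of 5 libraries.

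Pcdhgb1 was the gamma gene called in β-catSD. It read 2.03, 1.79 and 2.53 against 0.61, 1.71 and 1.61 at E12.5 and 2.07, 1.98 and 2.11 against 0.45, 1.59 and 1.33 at E13.5, from 9 to 63 reads a library. The β-catSD libraries lay above their controls at both stages. The mean rise of 0.87 ± 0.26 (adjusted p = 0.0437) was lost under 4 of the alternative fits (adjusted p up to 0.212) and without any 1 of 8 of the 12 libraries. In β-catSO its mean change was -0.38 ± 0.26 (adjusted p = 0.363), and the effects differed by -1.25 ± 0.37 (adjusted p = 0.0206).

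Pcdhac2, the C-type member of the alpha cluster and the one alpha gene in the table, read 0.07, 1.37 and 0.36 in β-catSO against -0.01, -0.88 and -0.03 at E12.5, from 6, 16 and 8 and 9, 5 and 9 reads. E13.5 libraries read 1.17, 1.98 and 2.66 against -1.60, -2.17 and -0.77, from 27, 83 and 79 and 5, 1 and 4 reads. The β-catSO libraries were above their controls at both stages. The rise was 3.45 ± 0.79 at E13.5 (adjusted p = 0.00361) and 2.18 ± 0.56 in the mean (adjusted p = 0.00688). On the log2(CPM + 1) scale the E13.5 rise was 1.89, and with marker covariates it narrowly missed the threshold (adjusted p = 0.0509).

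**Figure D4:**
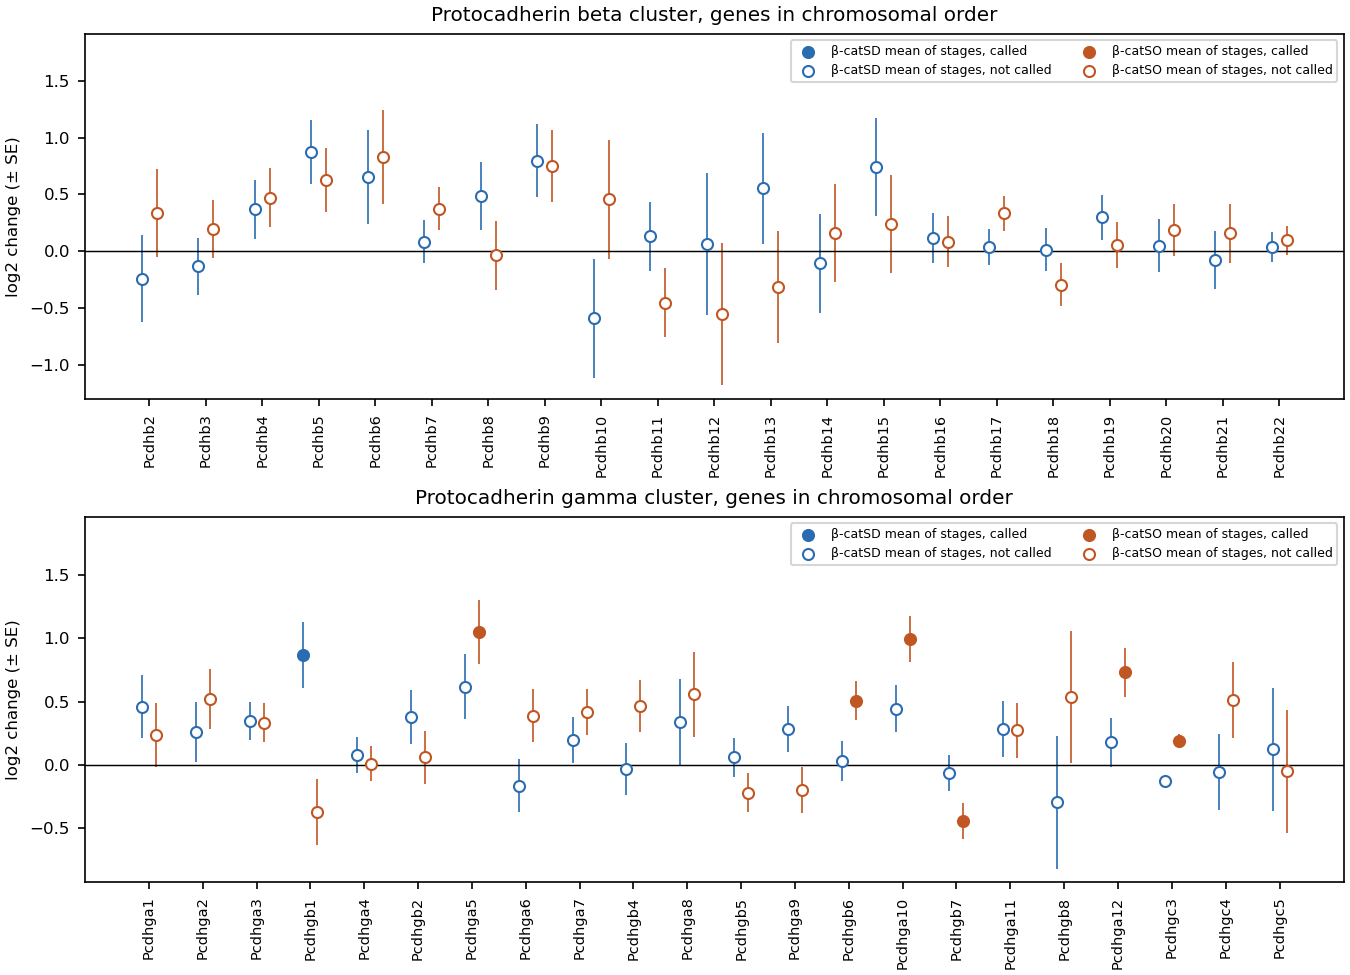
Log2 change (± SE) in the mean of stages for the 21 beta and 22 gamma cluster genes in chromosomal order, β-catSD in blue and β-catSO in orange, filled where called. No beta gene is filled, and the filled gamma genes are Pcdhgb1 in β-catSD and 6 in β-catSO, of which Pcdhgb7 lies below 0.

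Cdh1, Cdh4, Cdh16, Pcdh12 and Pcdh17 were highest in 1 wild-type library, and none of them was called between genotypes in the main fit. This does not hold for every member known from epithelium: Cdh6 read 5.84 in that library and was called in β-catSO. Cdh16, the cadherin of kidney tubule and duct epithelium, read -4.96, -1.24 and -2.19 in β-catSD against -4.35, 2.53 and 2.39 at E12.5, and -0.45, -1.47 and -1.55 against -0.63, -1.39 and -0.64 at E13.5. In β-catSO it read -1.30, 1.53 and -0.27 against -0.80, 2.69 and 2.26 at E12.5, and -0.09, 3.85 and 3.72 against 5.55, 2.43 and 1.19 at E13.5. Mutants and controls overlapped throughout, and no change was called (adjusted p = 0.431 and 0.594 in the means). The highest reading of Cdh1, Cdh4, Cdh16, Pcdh12 (endothelial) and Pcdh17 (568, 563, 777, 495 and 564 reads) was in wild-type CD1 E13.5 replicate 1 each time. That library also held the highest epithelial and endothelial marker sums, and none of the 15 epithelial markers was at 0 there. Without it Pcdh17 was called higher in the β-catSO mean (0.97, adjusted p = 0.00371) and Cdh9 lower (-1.25, adjusted p = 0.022).

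**Figure D5:**
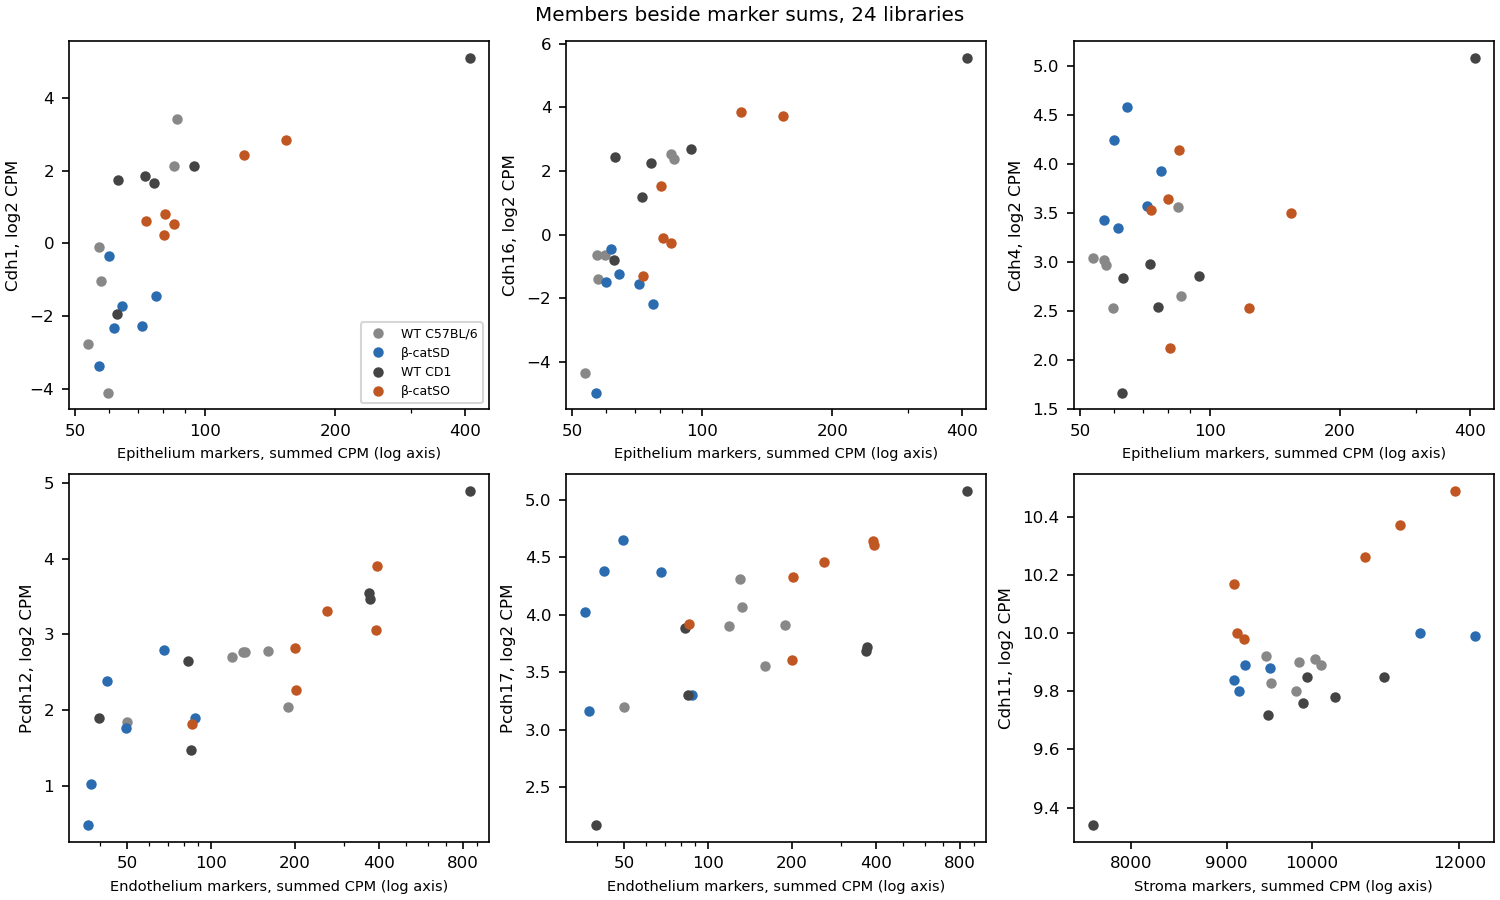
Log2 CPM of 6 members in each of 24 libraries against the summed CPM of a marker list in the same library (log axis), coloured by genotype and strain. One wild-type CD1 library lies far right for epithelium (410 CPM) and endothelium (850 CPM) and highest for Cdh1, Cdh16, Cdh4, Pcdh12 and Pcdh17, and it is the lowest for Cdh11 and for stroma markers.

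The effects of the mutant lines differed for 13 members when β-catSO was set against β-catSD, each relative to its own strain. The difference was positive for 10 and negative for 3 (Cdh2, Cdh24 and Pcdhgb1), while 9.87% of all genes were called higher and 8.05% lower. The positive ones were Cdh22, Pcdh10, Pcdhac2, Pcdh19, Cdh6, Pcdh7, Cdh8, Pcdh18, Cdh11 and Pcdhgc3, from 3.70 ± 1.04 for Cdh22 and 3.47 ± 0.37 for Pcdh10 down to 0.32 ± 0.07 for Pcdhgc3. Cdh2 and Pcdh19 were called in both lines with opposite signs. With the epithelial and endothelial covariates 8 members were called, of which 6 were among the 13. The others were Pcdh1 (-2.46, adjusted p = 0.000298) and Pcdh8 (-1.36, adjusted p = 0.0473). Pcdh8 was also called with array weights (-0.79, adjusted p = 0.0481). It was called as well without β-catSD E13.5 replicate 3 (-0.87, adjusted p = 0.0485) or β-catSO E13.5 replicate 1 (-0.93, adjusted p = 0.0217). Cdh2, Cdh8, Cdh22, Cdh24, Pcdh7, Pcdhac2 and Pcdhgb1 were lost with these covariates. Since endothelial markers fell in β-catSD, those covariates move with genotype, and their part in these differences was not tested.

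The change between stages was tested directly as well. No member passed for β-catSD, as for 0% of all genes, with 4 members at an unadjusted p under 0.05 (Cdh3, Pcdhb4, Pcdhga9 and Pcdhga10). The share of all genes at that unadjusted threshold was not counted, here or for β-catSO, so these counts show no excess. For β-catSO 0 members passed in limma, against 1.33% of all genes, with 14 at an unadjusted p under 0.05. Cdh11 (0.48 ± 0.13, adjusted p = 0.0722) and Cdh4 (-2.33 ± 0.66, adjusted p = 0.085) were closest. Without wild-type CD1 E13.5 replicate 2 both passed (0.59 and -2.73, adjusted p = 0.019 and 0.0476), and without replicate 1 of that group Cdh2 did (-0.56, adjusted p = 0.00894). Cdh11 also passed with array weights, the replicate block and total-count scaling (adjusted p = 0.0394, 0.0479 and 0.0475). Cdh4 did with marker covariates (adjusted p = 0.0369) and Cdh2 with array weights (adjusted p = 0.0122). With the 12 libraries of the line Cdh8 passed (1.275, adjusted p = 0.0349).

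In wild-type cells the median change of the members from E12.5 to E13.5 was -0.24 in C57BL/6 and -0.27 in CD1, against 0.00 for all genes in both. In C57BL/6 0 rose and 3 fell, where 3.96% of all genes were called in either direction, and 49 of 73 had a negative change. They were Cdh24 (-0.49 ± 0.13, adjusted p = 0.0309), Pcdh8 (-1.08 ± 0.29, adjusted p = 0.0401), a protocadherin of paraxial mesoderm and neurons, and Pcdhga9 (-1.10 ± 0.26, adjusted p = 0.0217). No call remained without E12.5 replicate 1 or without E13.5 replicate 3, and 1 did without E12.5 or E13.5 replicate 2.

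In CD1 1 rose and 5 fell, where 5.42% of all genes were called, and 53 of 73 had a negative change. Cdh3 rose (0.85 ± 0.22, adjusted p = 0.0269), and Cdh8 (-1.64 ± 0.30, adjusted p = 0.003), Cdh13 (-1.73 ± 0.39, adjusted p = 0.0116), the neural type II gene Cdh18 (-1.80 ± 0.49, adjusted p = 0.0322), the X-linked Pcdh11x (-1.08 ± 0.31, adjusted p = 0.0434) and Pcdhb17 (-0.79 ± 0.22, adjusted p = 0.0389) fell. Calls numbered 3 without E13.5 replicate 1 and 2 without E13.5 replicate 3 or without E12.5 replicate 3. The Cdh8, Cdh13 and Pcdhb17 values use the same wild-type CD1 E13.5 libraries as their rises in β-catSO at that stage (1.80, 1.26 and 0.68), so neither set stands as support for the other.

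Wild-type strains differed in 2 members, where 4.46% of all genes were called. Pcdh10 was lower in C57BL/6 than in CD1 (-1.01 ± 0.26, adjusted p = 0.033) and Pcdhgb6 higher (0.65 ± 0.16, adjusted p = 0.0231). No member was called on leaving out any 1 of 4 libraries (C57BL/6 E12.5 replicate 2 or E13.5 replicate 3, CD1 E12.5 or E13.5 replicate 2). Without C57BL/6 E13.5 replicate 2 only Pcdhgb6 was called. Without CD1 E12.5 replicate 3 both Pcdh10 and Pcdhgb6 were lost, and Pcdhga5 was called in their place (0.93, adjusted p = 0.032).

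Genes that work with cadherins were followed as lists, to be read against the 3.46% of all genes called higher and 3.71% lower in the β-catSD mean and 10.2% and 8.32% in the β-catSO mean. Of 13 catenins and junction adaptors 5 rose and 1 fell in the β-catSD mean, among them Afdn, the afadin of nectin junctions (0.50 ± 0.09), Ctnna1 (0.18 ± 0.04) and the neural alpha-catenin Ctnna2 (1.34 ± 0.31), and Ctnnb1 fell. In the β-catSO mean 2 rose and 3 fell: Ctnna2 rose again (1.52 ± 0.31), while Ctnna1 (-0.16 ± 0.04), Afdn (-0.34 ± 0.09) and Ablim1 (-0.32 ± 0.10) fell, and Vcl, vinculin, rose (0.17 ± 0.06). Their medians were 0.18 and 0.02, against 0.00 for all genes.

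Of 16 other genes of the cadherin superfamily, 2 rose and 1 fell in β-catSD: the giant cadherin Fat3 (1.55 ± 0.17), the calsyntenin Clstn2 (0.79 ± 0.13) and Fat4 (-0.44 ± 0.12), the atypical cadherin of the renal stroma. In β-catSO 3 rose and 1 fell, namely Fat1 (1.38 ± 0.08), Fat3 (0.80 ± 0.17), the desmosomal Dsc3 (3.49 ± 0.90) and Clstn3 (-0.52 ± 0.16). Their medians were 0.07 and 0.05.

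The 6 transcription factors of the cadherin switch, repressors and regulators that exchange E-cadherin for N-cadherin in migrating mesenchyme, gave 5 rises and 1 fall in β-catSO. Zeb2 (0.78 ± 0.07), Twist1 (0.84 ± 0.11), Twist2 (0.86 ± 0.16), Snai2 (0.35 ± 0.08) and Snai1 (0.45 ± 0.12) rose and Zeb1 fell (-0.24 ± 0.08), with a median of 0.62. In β-catSD Twist2 rose (0.79 ± 0.16) and Zeb2 fell (-0.35 ± 0.07), with a median of -0.12. Of 6 cadherin processing genes, Ncstn, a gamma-secretase subunit, was the 1 that passed, in β-catSD (0.28 ± 0.07). Of 9 chromatin factors known at protocadherin promoters, the cohesin subunit Rad21 rose in β-catSO (0.25 ± 0.06) and 0 passed in β-catSD. Of 11 cytoplasmic partners of protocadherins, Abi1 of the WAVE complex fell in β-catSO (-0.22 ± 0.06) and 0 passed in β-catSD.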

How the data were processed

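The table holds 1 row per gene and 1 column per library. Per the submitters' processing notes, HISAT2, HTSeq and limma were used with the mm10 build; their versions, the gene annotation and the strand of counting are not stated. The values the authors deposited are log2 CPM with 0.5 added to each count and library sizes scaled by TMM. Whole reads could be recovered (100% of values within 0.1 of a whole number), with 6.18 to 21.2 M (mega) reads a library. Zeros and single reads make low genes imprecise.

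The log2 values were fitted with limma 3.58.1 in R 4.3.3: 8 group means over 24 libraries, empirical Bayes with a mean-variance trend, 16 residual and 6.43 prior degrees of freedom, 12 contrasts, 2-sided tests. A gene needed 3 libraries above a log2 CPM of 0, which removed 0 of 13803 genes and 0 of 73 members. P-values were adjusted by Benjamini-Hochberg over all 13803 genes and called under 0.05, with no minimum fold change. Changes are log2 differences ± SE. The script was tested on simulated data. Exon lengths, overlaps and locations come from GENCODE M21 (GRCm38), and identity of at least 95% over 200 bases from BLAST 2.17.0. Promoters are RefSeq windows on GRCm38.p6.

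The members and lists were chosen with earlier results of these data known. Members called in any of the 6 comparisons of mutant with control are named with a test value. Values of every library are given for the up to 6 largest rises and falls in each mean of stages and for Cdh1, Cdh2, Cdh3, Cdh4, Cdh6, Cdh11 and Cdh16. Of the accompanying lists, up to 4 called genes with the smallest p per mean were to be named, and Snai1, Zeb1 and Vcl were added after their values were seen. Alternatives were voom weights, log2(CPM + 1), no filter, a filter at a mean log2 CPM above 1, total-count scaling, median centring, the 12 libraries of a line alone, the replicate number as a block, epithelial and endothelial marker means as covariates, array weights and leaving out each library. A fit without the 2 libraries highest in markers of other cells was chosen after seeing the data.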

Additional observations from a re-analysis of the deposited data

How the results depend on the processing

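Of 75 called pairs of member and comparison, 41 kept their call under every alternative run and every left-out library; over 1636 refitted values 188 lost the call and 0 reversed. Kept throughout were 15 of 19 in the β-catSO mean, 11 of 18 in β-catSO at E13.5, 5 of 7 at E12.5, 6 of 13 for β-catSO against β-catSD, 1 of 4 in the β-catSD mean (Pcdh9), 1 of 2 in β-catSD at E13.5 and 1 of 1 at E12.5. Of the wild-type comparisons 1 of 6 (Cdh8) was kept between CD1 stages, 0 of 3 between C57BL/6 stages and 0 of 2 between strains. The accompanying genes were fitted once.

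Counts of called members moved by over 1.5 times as follows. With the replicate block they were 2 in β-catSD at E12.5 (main fit 1), 1 for the β-catSO stage difference (0) and 1 for C57BL/6 stages (3). With marker covariates they were 3 in β-catSD at E12.5, 2 in its mean (4), 1 for the β-catSO stage difference, 8 for β-catSO against β-catSD (13), 2 for CD1 stages (6) and 1 between strains (2). With array weights they were 5 in β-catSD at E13.5 (2), 12 in β-catSO at E12.5 (7), 2 for the β-catSO stage difference and 7 for C57BL/6 stages. With voom weights they were 1 in β-catSD at E13.5, 1 for C57BL/6 stages and 1 between strains. Total-count scaling gave 1 for the β-catSO stage difference and 5 for C57BL/6 stages, and the 12 libraries of the line gave 1 for the former. Without the 2 libraries highest in markers of other cells the counts were 4 in β-catSD at E13.5, 1 for the β-catSO stage difference, 3 for CD1 stages and 4 between strains. Counts of all genes called under these settings are not given here, so whether the members moved more than other genes is not shown. The cause of these shifts was not tested.

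Leaving out 1 library gave 1 to 1 members in β-catSD at E12.5, 1 to 2 at E13.5, 3 to 4 in its mean and 0 to 0 for its stage difference. It gave 5 to 7 in β-catSO at E12.5, 13 to 17 at E13.5, 15 to 21 in its mean, 0 to 2 for its stage difference and 12 to 15 for β-catSO against β-catSD. It gave 0 to 4 for C57BL/6 stages, 2 to 7 for CD1 stages and 0 to 3 between strains. For these refits too, counts of all genes called are not given here. Whether replicate numbers pair the samples is not stated in the labels, so the replicate block is a check only. In β-catSD at E12.5, deviations of same-numbered mutant and control libraries correlated at 0.072 to 0.276, and those of different numbers at -0.24 to 0.027. In the other comparisons the ranges were -0.143 to 0.04 for the same number and -0.115 to 0.154 for different numbers. Members with few reads (Cdh15, Cdh22, Pcdhac2) have changes whose size rests on the 0.5 added to each count.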
